A study of Mus musculus with 2 samples.

Results

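The comparison described here is that of the bezafibrate pool with the control pool of mouse hypothalamus RNA at zeitgeber time 22 (ZT22, hours on a scale that starts at lights on). A gene was described when the scanner software marked it as well above background on both ZT22 arrays and its processed signal, the spot's background-subtracted brightness in arbitrary intensity units, reached 100 on at least 1 of them. Of the 21462 genes with a value on the arrays, 16224 were well above background on both, 3004 of these stayed under 100 on both arrays, and 13220 were described. The rule used signal levels and no ratio, but a gene bright on 1 array alone could enter through that array.

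Mice were 8 weeks old at the start, ate normal feed for 2 weeks, received feed with 0.5% bezafibrate for 2 weeks and then went back to normal feed for 5 weeks. The labels do not settle at which of these stages the brains were taken, what the control mice ate beside normal feed, or the strain and sex. A square block of brain that contained the hypothalamus was taken after decapitation, RNA of 4 mice was pooled for each diet and time, and 400 ng of it was labelled with Cy3 for a one-colour whole-genome oligonucleotide array. There was 1 pool per diet at ZT22, and a separate control pool and bezafibrate pool at ZT10, so the series had 4 arrays, all on 1 slide. Control pools lay at positions 1 (ZT22) and 2 (ZT10) and bezafibrate pools at positions 3 (ZT22) and 4 (ZT10), so diet and place on the slide cannot be told apart. With 1 pool per diet the spread between mice or pools is unknown, and no p-value is given for any difference.

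Bezafibrate is a fibrate, a lipid-lowering drug that activates the peroxisome proliferator-activated receptors (PPARs), nuclear receptors that pair with RXR and switch on genes of fatty acid uptake, oxidation and ketone synthesis, foremost in liver. The hypothalamus holds the neurons that set feeding, body temperature, hormone release and daily rhythm. In its arcuate nucleus, neurons that make AgRP and NPY drive feeding and neurons that make POMC restrain it, and the suprachiasmatic nucleus holds the main circadian clock.

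The block was rich in hypothalamic transcripts in both pools. Hcrt, the orexin precursor of the lateral hypothalamus, gave 63100 units in control and 69800 in bezafibrate RNA. Pmch, which encodes melanin-concentrating hormone, gave 56000 and 57500, and Oxt, the oxytocin precursor, 71100 and 54800. Transcripts best known from neighbouring tissue were present too, such as the striatal gene Rgs9 at 1370 and 1980 units and Prkcd of the thalamic list at 1010 and 740. In such RNA, fewer cells of a type and less RNA per cell cannot be told apart.

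Ratios below are log2 of bezafibrate over control after each array was divided by its own 75th percentile (1010 units for the control array, 893 for the bezafibrate array), so 1 is a 2-fold difference, and printed signals are not scaled. The scanner software's error of a ratio had a median of 0.20 and covers the spot measurement only. It was larger for dim genes, as with Akr1b7 (0.34) and Pcdhga1 (0.29), and is not printed for every ratio below. Most genes were alike in both pools. The median ratio was 0.01, the middle 50% of genes lay between -0.06 and 0.08, and the central 95% between -0.32 and 0.33. Of the 13220 genes, 32 were at least 2-fold higher in the bezafibrate pool (0.242%) and 52 at least 2-fold lower (0.393%), and at 1.5-fold the counts were 93 (0.703%) and 96 (0.726%).

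Brightness decided much of that count. Of the 1730 genes with a mean signal above 10000 only 1, Mt2, reached 1.5-fold, against 0.98% of the 3159 genes between 300 and 1000 and 3.59% of the 2198 genes between 100 and 300. In 370 of the genes described the signal reached 100 on 1 array only, and 183 of these had a mean under 100 and so had to differ to be described. Among the 12850 genes at 100 or more on both arrays, 13 were 2-fold higher (0.101%), 7 were 2-fold lower (0.0545%), 62 were 1.5-fold higher (0.482%) and 37 were 1.5-fold lower (0.288%), and 99 passed 1.5-fold in either direction (0.77%). The share of 2-fold genes that were higher was 38.1% over all genes described and 65.0% over these. At 1.5-fold it was 49.2% and 62.6%, and 36.8% with the ratio table that the authors deposited, whose median over genes lay at -0.06. Of all genes described 53.3% had a ratio above 0, and of those at 100 or more on both arrays 54.1% did and 45.9% were below 0. The gene lists below can hold members at 100 or more on 1 array only, such as Kcne2 and Adra2b. Most dim genes with the widest ratios follow separately.

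**Figure D1:**
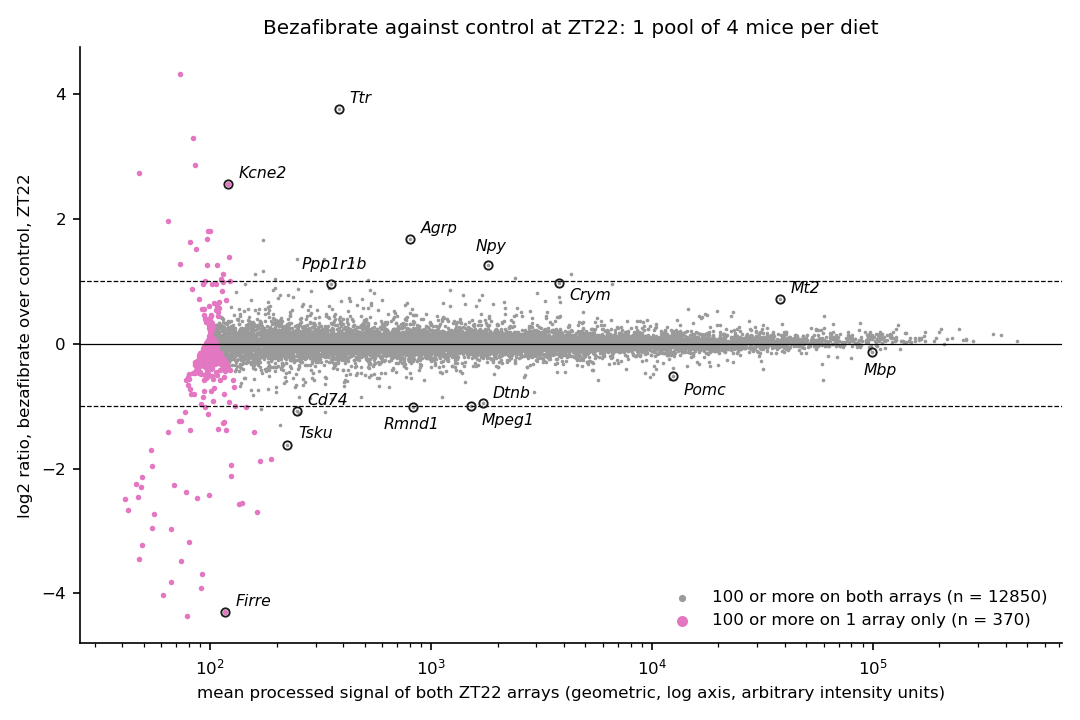
Log2 ratio of bezafibrate over control at ZT22 (vertical axis) against the geometric mean of both processed signals (horizontal, log axis, arbitrary intensity units), 1 point per gene, with dashed lines at 2-fold. Grey points are the 12850 genes at 100 or more on both arrays and pink points the 370 genes at 100 or more on 1 array only; the widest ratios lie at the dim end, and Ttr, Agrp and Npy stand clear of genes of their own brightness.

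Agrp, which encodes the agouti-related peptide that blocks melanocortin receptors and promotes feeding, was the second highest ratio among genes at 100 or more on both arrays. Its signal was 477 units with control and 1350 with bezafibrate, a ratio of 1.68 ± 0.20 (scanner error) or 3.20-fold. Npy, the neuropeptide Y precursor made by the same neurons, gave 1250 and 2640 units, a ratio of 1.26 or 2.39-fold. Both were also higher in the bezafibrate pool of ZT10, with 639 and 1310 units for Agrp (0.98) and 1510 and 2580 for Npy (0.72), so both bezafibrate pools lay above both control pools for each gene.

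Pomc, the precursor of the melanocortin peptides that curb feeding, was lower in the bezafibrate pool. It gave 15900 units with control and 9840 with bezafibrate, a ratio of -0.51 or 1.43-fold lower, which is short of 1.5-fold. At ZT10 it gave 15700 and 7380 (-1.15), so both bezafibrate pools lay below both control pools. The pituitary also makes Pomc, and its hormones Prl (59.2 and 2.41 units at ZT22, 380 and 17.7 at ZT10) and Gh (63.9 and 9.25, 201 and 15.9) were dimmer in the bezafibrate pools at both times too. Cga, the shared chain of other pituitary hormones, gave 0.43 at ZT22 and -0.70 at ZT10, and the part of pituitary tissue in the Pomc ratio was not tested. Cartpt, a peptide gene that POMC neurons and other hypothalamic cells express, gave 17400 and 13500 (-0.19) and its other probe -0.02.

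The feeding circuit list taken whole had a median near the centre. Of 17 described genes of this arcuate and melanocortin list, Agrp, Npy, Pomc and Cartpt included, 8 were higher and 9 lower. The median was -0.05 at ZT22 and -0.08 at ZT10. The receptors Mc3r (753 and 631 units, -0.08), Mc4r (422 and 360, -0.05), Npy1r (163 and 155, 0.10) and Npy5r (244 and 253, 0.23) lay within the central 95% of all genes. Ghsr, the ghrelin receptor, passed 1.5-fold with 189 and 70.2 units (-1.25), but its other probe gave 0.35 and the ZT10 pools gave 37.5 and 37.4. Beside these ratios, the median was 0.38 at ZT22 and -0.06 at ZT10 for choroid plexus markers, 0.36 and -0.05 for striatal, -0.31 and -0.02 for myelin, -0.17 and -0.19 for thalamic and 0.14 and -0.18 for pituitary markers. The part of these tissues in the ratios of Agrp, Npy and Pomc was not tested.

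The 250 bases before the start of Npy (chr6:49822460-49822709) and of Pomc (chr12:3954695-3954944), plus strand, are printed from the RefSeq promoter table of GRCm38.p6, because both genes stood on the same side of control at both times and bezafibrate acts through receptors that bind DNA. The letters AGGTCA, the half-site that nuclear receptors of this family read, and TATAAA were searched on both strands and are in capitals where found.
Npy: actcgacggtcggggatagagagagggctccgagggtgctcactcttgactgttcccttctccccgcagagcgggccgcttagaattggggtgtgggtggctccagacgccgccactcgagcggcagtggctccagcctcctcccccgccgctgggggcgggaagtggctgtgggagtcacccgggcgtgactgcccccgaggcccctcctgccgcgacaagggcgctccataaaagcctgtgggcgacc
Pomc: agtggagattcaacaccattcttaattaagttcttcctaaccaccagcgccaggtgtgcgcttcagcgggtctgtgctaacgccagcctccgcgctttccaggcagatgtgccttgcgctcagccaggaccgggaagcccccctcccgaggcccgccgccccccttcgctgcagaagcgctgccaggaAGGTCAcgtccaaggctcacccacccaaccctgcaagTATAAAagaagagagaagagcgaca
In Pomc, AGGTCA began 62 bases before the start and TATAAA 25 bases before it. Neither was in the Npy stretch. AGGTCA is a frequent word, held by 14.0% of 32851 promoters of that length, by 10.7% of the 13134 promoters of genes described, by 16.8% of the 95 promoters of genes 1.5-fold higher and by 12.9% of the 93 promoters of genes 1.5-fold lower. TATAAA had the same order, with 12.4%, 6.85%, 14.7% and 10.8% in these sets. Differences between the shares were not tested. The spaced pair AGGTCANAGGTCA, the full site of a PPAR and its partner, overlaps the half-site search. It occurred in 11 of all promoters (0.0335%), in 3 of those of genes described (0.0228%) and in 0 of those of genes past 1.5-fold. A match is a description of letters and not a measured site.

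Other hypothalamic peptides showed no 1.5-fold member, where 1.43% of all genes described passed 1.5-fold in either direction. Of 24 described, 12 were higher and 12 lower, with a median of 0.00. The lowest was Kiss1, the kisspeptin gene, with 370 and 224 units (-0.55), also lower at ZT10 with 288 and 223 (-0.43). Avp, the vasopressin precursor, gave 70400 and 49700 units (-0.32) and at ZT10 60700 and 39600 (-0.67). The highest was Ghrh, growth-hormone-releasing hormone, with 3020 and 3640 (0.45), which did not keep its side at ZT10 with 3260 and 3070 (-0.14). Of 21 described transcription factors that mark hypothalamic nuclei, 0 passed 1.5-fold, with ratios from -0.12 to 0.39 and a median of 0.06.

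Genes of the choroid plexus, the epithelium that makes cerebrospinal fluid in the brain ventricles, were higher in the bezafibrate pool of ZT22. Ttr, the thyroxine carrier transthyretin and the leading product of that epithelium, gave 110 units with control and 1320 with bezafibrate, a ratio of 3.76 or 13.6-fold, the highest of all genes at 100 or more on both arrays. The ZT10 pools gave 58.8 and 62.7, so a single pool of the 4 was high. Kcne2, a potassium channel subunit, gave 52.7 and 274 units (2.56) against 32.2 and 30.2 at ZT10.

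The other markers followed by smaller amounts. Aqp1, the water channel, gave 49.0 and 134 units (1.63), Kl, the Klotho gene, 196 and 320 (0.88), Car12, a carbonic anhydrase, 182 and 278 (0.79), and Sostdc1, a secreted signalling antagonist, 454 and 630 (0.65). Folr1, the folate receptor, gave 298 and 651 units (1.30), but its other probe gave -0.25. Of 17 described markers, 14 were higher and 3 lower, 7 passed 1.5-fold higher and 0 lower, and the median was 0.38, against 0.01 over all genes and -0.06 for the same 17 at ZT10. Kcne2 and Aqp1 were described through the bezafibrate array alone. On the scaled signals, 13 of the 17 were highest on the bezafibrate ZT22 array among the 4, which was so for 35.6% of all genes measured on 4 arrays.

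Of the 6 markers not described, 5 were brighter with bezafibrate at very low levels and Slco1a5, a transporter, was dimmer (37 and 24.8 units). Slc4a5, a bicarbonate transporter, gave 20.0 and 53.3 units, and Cldn2, a tight-junction protein, 18.7 and 30.3. Other described members lay closer to 0, with Enpp2 at 12100 and 13900 units (0.38) and Igf2 at 3704 and 3454 (0.08). The 3 lower members were Clic6 at 6560 and 5740 (-0.01), Prlr (-0.10) and Wfdc2 (-0.14). The summed signal of the 17, not scaled between arrays, was 30796 with control and 33422 with bezafibrate. The 75th percentiles of these arrays were 1010 and 893. How much choroid plexus each block held, and its part in these ratios, was not tested.

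Ependymal and tanycyte genes of the ventricle wall had a median close to that of all genes. Of 14 described, 5 were higher and 9 lower, with a median of -0.05. The cilia factor Foxj1 gave 1430 and 1150 units (-0.14). A pair passed 1.5-fold: Crym, a thyroid-hormone-binding protein also made by many neurons, with 2890 and 5020 units (0.97), and Dio2, the deiodinase that makes active thyroid hormone, with 961 and 1330 (0.65). Crym was also higher at ZT10 (3090 and 4000, 0.32), and Dio2 was not (1320 and 1170, -0.23).

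Genes of striatal projection neurons, the GABA neurons that fill the striatum beside and in front of the hypothalamus, were higher as a group in the bezafibrate pool. Ppp1r1b, which encodes the dopamine-regulated phosphatase inhibitor DARPP-32, gave 268 units with control and 462 with bezafibrate (0.96), and Drd1, the D1 dopamine receptor, 270 and 442 (0.89). Rgs9, which shortens dopamine receptor signalling, gave 1370 and 1980 units (0.71), and the retinoic acid receptor gene Rarb 1221 and 1673 (0.63).

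All 20 markers on the arrays were described, each at 100 or more on both, and 19 were higher and 1, Rasd2, lower (460 and 355 units, -0.20). The number past 1.5-fold was 7 higher and 0 lower, and the median was 0.36, against -0.05 for the same genes at ZT10. Arpp21, a cyclic-AMP-regulated phosphoprotein, gave 1.12 on its brightest probe and -0.02 on the other, and Adora2a, the adenosine A2a receptor, gave 0.01 and 1.44, so single probes disagreed in both directions. Gng7 gave 0.61 and 1.24 and Pde10a 0.49 and 0.84, higher on both probes.

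The 4 pools show where this difference sat. On the scaled signals, 14 of the 20 genes were lowest on the control ZT22 array and 19 of 20 were highest on the bezafibrate ZT22 array. Over all genes these shares were 19.5% and 35.6%. Ppp1r1b at ZT10 gave 483 and 466 units, close to the bezafibrate pool of ZT22 and above the control pool of ZT22. Rgs9 gave 1760 and 1770 at ZT10, between the ZT22 pools. The summed signal of the list, not scaled between arrays, was 111303 and 128486 units at ZT22 and 119225 and 119088 at ZT10. The 75th percentiles of these arrays were 1010 and 893 at ZT22 and 1010 and 1050 at ZT10. The share of striatum in each block was not measured, and its part in the result was not tested.

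Myelin genes went the other way, by small amounts but all alike. Of 21 described members of the list of oligodendrocytes, the cells that wrap axons in myelin, 0 were higher and 21 lower. Ratios ran from -0.51 to -0.02 with a median of -0.31, where 46.7% of all genes were lower. Gjb1 (102 and 84.7 units, -0.09) was described through the control array alone, so its lower side was built into its choice. None passed 1.5-fold. Mog, a myelin surface protein, gave 677 and 421 units (-0.51), Opalin 542 and 341 (-0.49) and Mobp 12800 and 8580 (-0.40). Mbp, at 110082 and 89076 units, gave -0.13, and its other probes -0.46 and -0.01.

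At ZT10 the same 21 genes split into 9 higher and 12 lower with a median of -0.02. On the scaled signals, 18 of 21 were lowest on the bezafibrate ZT22 array and 15 were highest on the control ZT22 array. Over all genes these shares were 19.8% and 27%. The summed signal, not scaled between arrays, was 324685 and 249369 units at ZT22 and 309371 and 321578 at ZT10. The bezafibrate ZT22 array was also the dimmest as a whole, with a 75th percentile of 893 units against 1010 for control ZT22. Part of the raw difference at ZT22 therefore reflects the array and not the list. Precursor cells of the same lineage shifted less, with 2 of 9 described markers higher, 7 lower and a median of -0.09. Among the lower ones, Neu4 (113 and 90.8 units, -0.14) was described through the control array alone. The part of the amount of fibre tract in the blocks was not tested.

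Thalamic markers were lower at both times. At ZT22, 1 of 16 described was higher and 15 lower, with a median of -0.17, and at ZT10 the counts were again 1 and 15 with a median of -0.19. Synpo2 gave 1730 and 1100 units (-0.48, other probes -0.61 and -0.02), Tnnt1 581 and 399 (-0.36) and Prkcd 1010 and 740 (-0.27, other probe -0.47). Adra2b, an adrenergic receptor, was the only 1.5-fold member, with 264 and 16.6 units (-3.81 ± 0.27), and at ZT10 it gave 19.4 and 14.6, so its control ZT22 array alone was high. It was described through that array.

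Red cell transcripts were also lower, with Hba-a1 at 18900 and 13600 units (-0.30) and Hbb-bt at 36400 and 26500 (-0.28), against 0.00 and 0.13 at ZT10. Astrocyte genes (16 described, median 0.06, ratios from -0.14 to 0.19), microglial genes (16, -0.02, from -0.23 to 0.21) and meningeal genes (16, -0.03, with Igfbp2 alone past 1.5-fold at 1380 and 1850 units) stayed near the centre. Of the 17 described vessel genes, 4 were higher and 13 lower, with a median of -0.04, and Cnn1, a smooth muscle protein, was the only 1.5-fold member with 154 and 62.6 units (-1.12). Cortical and hippocampal genes had a median of 0.08 over 11 described.

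Of the 9 described pituitary genes, 7 were higher and 2 lower, with a median of 0.14. Tshb, the thyrotropin beta chain, gave 218 and 492 units (1.35) on its brightest probe and -0.09 on the other. Its partner Cga gave 3480 and 4150 (0.43) at ZT22 and 4010 and 2570 (-0.70) at ZT10. The same 9 genes gave 2 higher and 7 lower at ZT10, with a median of -0.18. Prl and Gh, the most abundant hormones of the anterior pituitary, were under the limit for description at ZT22, and at ZT10 they gave -4.48 and -3.72. Of 7 described blood cell genes, 1 was higher and 6 lower. Ddx3y and Eif2s3y, both Y-linked, were present in both pools at 1820 and 1660 units and at 1110 and 1010.

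**Figure D2:**
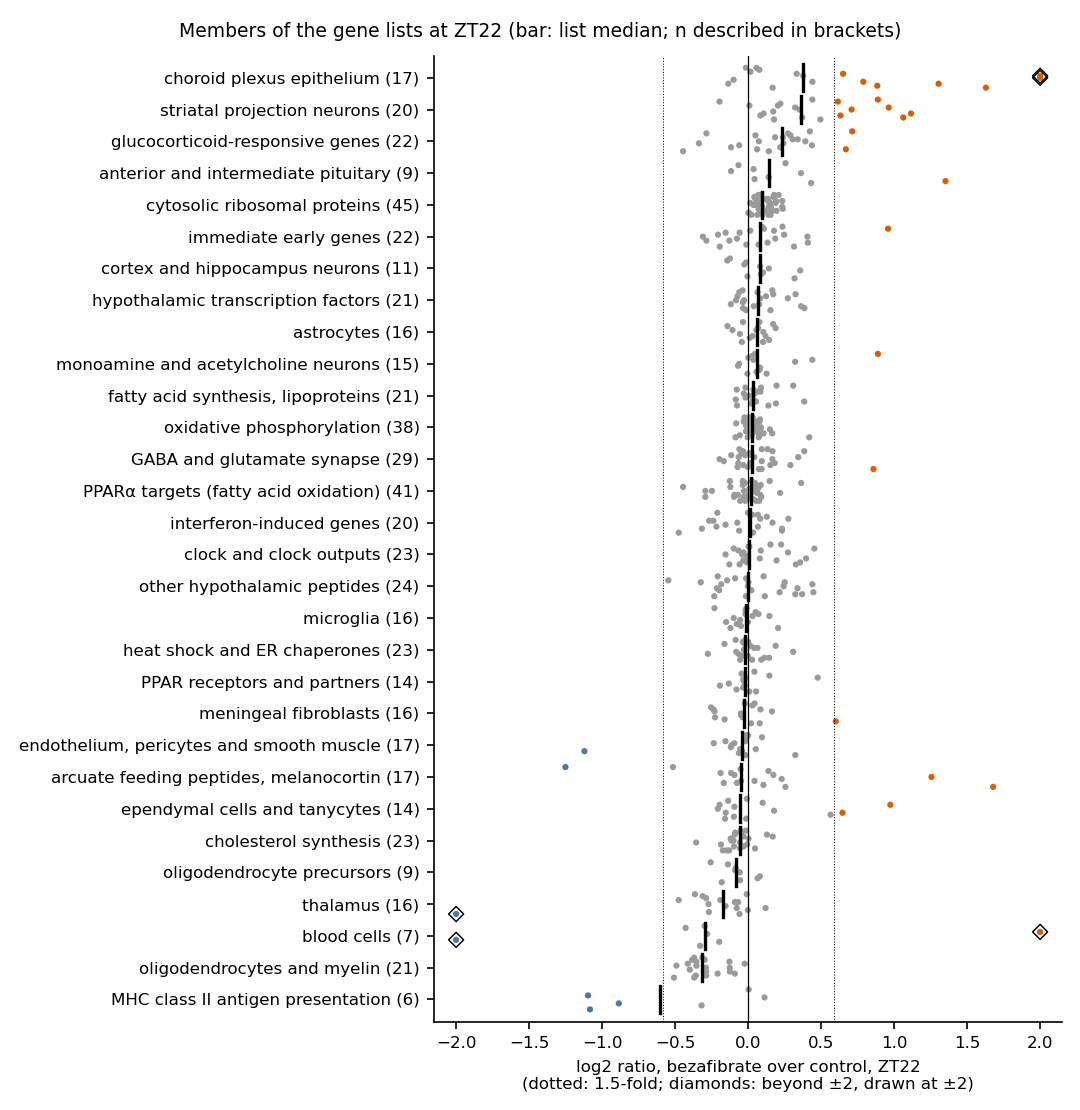
Log2 ratio at ZT22 of each described member of 30 gene lists (horizontal axis), 1 row per list ordered by its median (black bar), with orange and blue for members at least 1.5-fold higher or lower. Choroid plexus (median 0.38) and striatal neurons (0.36) lie to the right, myelin (-0.31) lies wholly left of 0, and the PPARα target list (0.02) clusters at 0; the list of MHC class II genes was chosen after the values were seen.

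**Figure D3:**
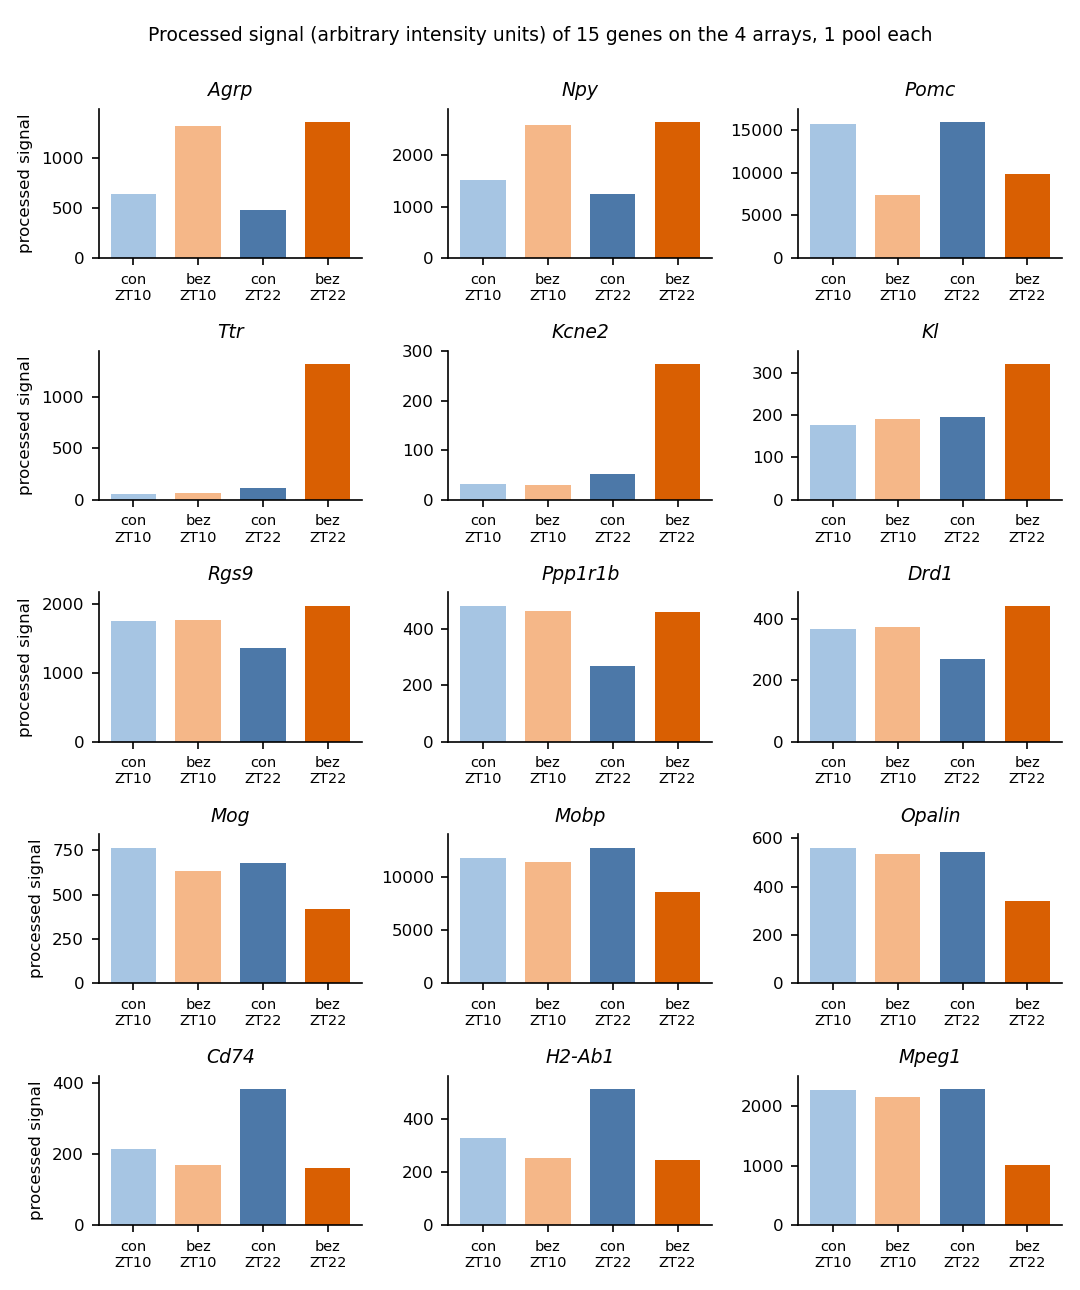
Processed signal (vertical axes from 0, arbitrary intensity units, not scaled between arrays) of 15 genes on the 4 arrays, 1 bar per pool (con, control; bez, bezafibrate). Agrp, Npy and Pomc separate by diet at both times, Ttr and Kcne2 are high on the bezafibrate ZT22 array alone, Ppp1r1b is low on the control ZT22 array, and Mog, Mobp and Mpeg1 are lowest on the bezafibrate ZT22 array.

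The genes that bezafibrate is best known to switch on in liver lay at the centre of all genes. Of 41 described PPARα targets of fatty acid oxidation and ketone synthesis, 25 were higher and 16 lower. The median was 0.02 at ZT22 and 0.02 at ZT10. Of these 41 genes, 0 passed 1.5-fold in either direction. Only 1.43% of all genes described did, so any list of this size could hold none. Pdk4, a kinase that spares glucose, gave 676 and 696 units (0.22) and Cpt1a, which admits fatty acids to mitochondria, 949.6 and 844.3 (0.01). Angptl4, a secreted lipase inhibitor that PPARs and glucocorticoids induce in other tissues, was the lowest of the list with 4620 and 3000 units (-0.45), and its control ZT22 array stood above both ZT10 pools (2880 and 2950).

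The receptors themselves were alike in the pools. Ppara gave 194 and 168.4 units (-0.03) and Pparg 218.6 and 182.9 (-0.08). Of 14 described receptors and partners, 5 were higher and 9 lower, from -0.19 for Rxrg (7370 and 5700) to 0.48 for Med1, a coactivator subunit (1520 and 1870). Neither of the other probes of Med1 repeated this, at 0.09 and -0.14.

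Cholesterol synthesis genes were slightly lower at both times. Of 23 described, 4 were higher and 19 lower with a median of -0.06 at ZT22, and at ZT10 the counts were 3 and 20 with -0.07. On brightest probes the lowest was Insig1, which holds back the sterol sensor, with 550 and 380 units (-0.36, other probe -0.12). Dhcr7, which makes the last step to cholesterol, gave 8570 and 6660 (-0.19, other probe -0.54). On the brightest probe of each gene, all 45 cytosolic ribosomal protein genes were higher, from 0.00 to 0.24 with a median of 0.10. That median lay between 0.03 and 0.11 under the other scalings and settings, where the median of all genes moved by less than 0.1, and at ZT10 33 of the 45 were higher (0.04). Other probes did not all repeat the sign. Those of Rps24 (0.24), the highest, gave -0.05 and -0.16, and those of Rps2 (0.23) gave 0.27 and 0.20. Of the 38 oxidative phosphorylation genes, 27 were higher with a median of 0.03, and that sign turned under the deposited ratio table (-0.04).

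Glucocorticoid-responsive genes, which follow the daily surge of corticosterone and stress, were more often higher in the bezafibrate pool. Of 22 described, 17 were higher and 5 lower with a median of 0.23, against -0.03 at ZT10. Both members past 1.5-fold were higher: Mt2, a metal-binding metallothionein, with 31600 and 45800 units (0.71), and Sgk1, a salt- and stress-regulated kinase, with 3250 and 4570 (0.67). On the scaled signals 14 of the 22 were lowest on the control ZT22 array, against 19.5% of all genes. Sgk1 gave 7210 and 8020 units at ZT10 and Tsc22d3, the glucocorticoid-induced leucine zipper, 5240 and 5480 at ZT22 (0.24) against 7740 and 7710 at ZT10. Mt2 gave 40900 and 36100 at ZT10, so the bezafibrate pool of ZT22 was its highest. Myelin markers (-0.31) and striatal markers (0.36) also stood apart in the same pair of pools, and their part in this result was not tested.

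Clock genes differed little between the ZT22 pools. Of 23 described, 12 were higher and 11 lower with a median of 0.00, and 0 passed 1.5-fold, against 1.43% of all genes. The highest was Dbp, a transcription factor driven directly by the clock, with 16100 and 19500 units (0.45) at ZT22 and 38600 and 33100 (-0.28) at ZT10. Per1, a light- and clock-regulated repressor, gave 2190 and 2340 (0.27) and 3000 and 3410 (0.13), and Arntl, the activator of the loop, 1360 and 1100 (-0.13) and 966 and 1020 (0.02). For Dbp the difference between times within a diet was larger than the difference between diets at either time.

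Some other output genes gave the same order as Dbp and some did not. Usp2 gave 660 and 732 units at ZT22 (0.33) and 1120 and 977 at ZT10 (-0.25), and Ciart, a clock repressor, 205 and 212 (0.23) and 406 and 354 (-0.25). Nr1d1, which encodes the repressor REV-ERBα, gave 341 and 397 (0.40) and 636 and 563 (-0.23), with -1.07 and 0.23 on its other probes at ZT22. Tef, a relative of Dbp, gave -0.00 and 0.06, and Hlf, another, -0.06 and -0.08. Usp2, Ciart, Tef and Hlf were picked here after their values were seen.

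Among 22 described immediate early genes, which neurons switch on with activity, 13 were higher and 9 lower with a median of 0.08 (-0.12 at ZT10). Egr3, a zinc-finger factor, was the only 1.5-fold member, with 110 and 189 units (0.96) at ZT22 and 120 and 134 at ZT10. Its relatives gave 0.25 for Egr1, 0.41 for Egr2 and 0.41 for Egr4, while Fos gave 504.2 and 442.1 (-0.01) and Npas4 143 and 102 (-0.31). Of 23 heat shock and chaperone genes, 10 were higher and 13 lower (median -0.02). Of 20 interferon-induced genes, 10 were higher and 10 lower (0.01). In each list 0 passed 1.5-fold, against 1.43% of all genes.

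Synaptic genes lay near the centre apart from a few. Of 29 described genes of the GABA and glutamate synapse, Gabrd, the delta subunit of extrasynaptic GABA-A receptors, alone passed 1.5-fold, with 967 and 1550 units (0.86) at ZT22 and 1690 and 1120 (-0.65) at ZT10. Of 15 monoamine and acetylcholine genes, Drd1 alone passed, and Slc5a7, the choline transporter of cholinergic neurons, was next with 637 and 764 units (0.44), and 567 and 789 (0.42) at ZT10. Th, the rate-limiting enzyme of dopamine synthesis, gave 1015 and 927.3 (0.05).

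MHC class II genes, which present antigen on the surface of immune cells, were lower, in a list put together after the values were seen. H2-Ab1, a class II beta chain, gave 514 units with control and 246 with bezafibrate (-0.89), and its other probes gave -0.79, -0.90 and -0.70. H2-Aa, its alpha chain partner, gave 119 and 49.2 units (-1.10, other probe -1.19), and Cd74, the invariant chain that guides both, 381 and 159 (-1.08). At ZT10 the same genes gave -0.44, -0.66 and -0.40, and the other 3 described were higher, with H2-DMb1 at 0.69, H2-Eb1 at 0.15 and H2-DMa at 0.02.

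For Cd74 and H2-Ab1 the control pool of ZT22 stood above the other 3, which gave 214, 169 and 159 units and 328, 252 and 246. H2-Eb1 (133 and 94.3 units, -0.32), H2-DMa (528 and 468, 0.00) and H2-DMb1 (226 and 216, 0.11) lay closer to 0. H2-Aa and H2-Eb1 reached 100 units on the control array only and so were described through the array where they were high. Of the other 4, H2-Ab1 and Cd74 passed 1.5-fold lower and H2-DMa and H2-DMb1 did not. Under the normexp background correction, where 50 units are added before the log, H2-Aa gave -0.59 and Cd74 -0.80. Microglial markers such as Aif1 (2620 and 2130, -0.12) and Cx3cr1 (935 and 772, -0.10) were near the centre. Cd79a, a B-cell receptor chain described through the control array alone, gave 167 and 13.5 units (-3.45 ± 0.32). At ZT10 it gave 35.1 and 10.4 units and was not above background on both arrays. Cd79b, under the limit for description, gave 26.2 and 20.5 units at ZT22 (-0.18). The part of blood or meningeal immune cells in these ratios was not tested.

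Mpeg1, the macrophage pore-forming protein perforin-2, gave 2280 and 1010 units (-0.997), the lowest ratio among genes with a mean signal of 1000 to 3000, and at ZT10 2270 and 2150. Dtnb, dystrobrevin beta of the dystrophin complex, gave 2520 and 1160 (-0.94, other probe -0.92) and at ZT10 2740 and 2560. For both, the bezafibrate ZT22 array alone was low. Rmnd1, a factor of mitochondrial translation, gave 1250 and 550 (-1.01, other probe -0.86), and Ptprg, a receptor phosphatase, 1610 and 785 (-0.86, other probe -0.15).

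The lowest ratio among genes at 100 or more on both arrays was that of Tsku, a secreted signalling modulator, with 417 and 120 units (-1.62 or 3.07-fold lower). Gpr4, a proton-sensing receptor of vessels, followed with 345 and 123 (-1.31), then the olfactory receptor Olfr933 with 394 and 162 (-1.10) and Fam47e with 512 and 212 (-1.09). In each of these the bezafibrate pool of ZT22 resembled the ZT10 pools, as Tsku gave 142 and 123 there, Gpr4 130 and 127, Olfr933 184 and 171, and Fam47e 260 and 269. The control ZT22 array was thus the high one of the 4.

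Pskh1, a protein kinase, Trim16, a ubiquitin ligase, and Nt5dc1 shared that pattern in part, at 259 and 111 units (-1.04), 221 and 111 (-0.82) and 362 and 177 (-0.85). Slc7a14, a transporter-like protein, gave 405 and 197 (-0.86) and Tcf7l1, a Wnt pathway repressor, 687 and 337 (-0.85), but their other probes gave 0.03 and 0.22.

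On the higher side, outside the lists, Cyp2c70, a cytochrome P450 of bile acid metabolism in liver, gave 103 and 289 units (1.67 ± 0.21) against 112 and 106 at ZT10. Ecrg4, which encodes a secreted peptide precursor, gave 164 and 372 (1.36) against 153 and 112. Kank4 gave 115 and 220 (1.11, other probe 0.45) against 154 and 159. In all 3 the bezafibrate ZT22 array was the high one.

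Skap1, a T-cell adaptor protein, gave 146 and 266 units (1.04), but its ZT10 pools gave 493 and 469, above both. Slc4a7, a sodium bicarbonate cotransporter, gave 5030 and 8660 (0.96) on its brightest probe and -0.65 and 0.25 on the others. Psmc3ip, a recombination cofactor, gave 385 and 694 (1.03, other probe 1.13) at ZT22 and 1430 and 362 (-2.04) at ZT10.

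The widest ratios belonged to genes near background on 1 array. Firre, a long noncoding RNA of the X chromosome, gave 552 units with control and 24.7 with bezafibrate (-4.30 ± 0.24), and at ZT10 31.8 and 258 (2.96), so it was high in 1 control and 1 bezafibrate pool. Prss32, a serine protease, gave 264 and 14.3 (-4.03 ± 0.28), Pklr, the pyruvate kinase of liver and red cells, 375 and 22 (-3.91 ± 0.25) and Mbtps2, a protease that frees sterol sensors, 258 and 25.1 (-3.18 ± 0.24). For these 3 the ZT10 pools gave between 21.0 and 33.4 units, so the control ZT22 array alone was raised.

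Fscn3, Fam163b, Umodl1, Pcdhga1, Akr1b7 and Calr4 also belonged to the 15 lowest, with ratios from -2.97 to -2.30 and bezafibrate signals of 15.9 to 60.2. Pde6h (-3.49), Mgmt (-2.56) and Itga1 (-2.42) did so on their brightest probe, and their other probes gave 0.25, -0.10, and 0.20 and 0.41. These are single spots.

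On the higher side the dim genes were Olfr846, an olfactory receptor (17.4 and 308 units, 4.32 ± 0.30), Tmprss2, a membrane serine protease (28.3 and 245, 3.29 ± 0.25), Ccr6, a chemokine receptor (33.6 and 217, 2.87 ± 0.24), and Gata5, a transcription factor (19.6 and 116, 2.74 ± 0.28). Sh3rf2 (1.97 ± 0.24), Hjv, an iron regulator (1.81 ± 0.22), Rhox5 (1.81 ± 0.22), Dnaaf6b (1.67 ± 0.21), Lrat, the retinol-storing enzyme (1.52 ± 0.23), and Cyp2d26 (1.39 ± 0.21) completed the set, with control signals of 34.6 to 79.9. Only Ccr6 (43.3 and 96.3) and Gata5 (14.2 and 28.1) of these were 1.5-fold higher at ZT10 as well.

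Most genes past 2-fold were described through 1 array, namely 45 of the 52 lower through the control array and 19 of the 32 higher through the bezafibrate array, so a high spot on that array was built into their choice and the counts that follow are a description. Of the 52 genes 2-fold lower with bezafibrate, 51 were measured on all 4 arrays, and in 42 the control ZT22 array was 2-fold above the control ZT10 array. In 30 of these 42 the other 3 arrays lay within 1.5-fold of each other. Of the 32 genes 2-fold higher, 31 were measured on 4, in 20 the bezafibrate ZT22 array was 2-fold above that of ZT10, and in 8 of these the other 3 lay within 1.5-fold. Time and pool change together between those arrays and cannot be told apart.

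ZT10 used separate mice and separate arrays. Of the 13 bright genes 2-fold higher at ZT22, 3 were higher at ZT10 and 2 by 1.5-fold, namely Agrp and Npy, and of the 7 lower all 7 were lower at ZT10 and 0 by 1.5-fold, with a median of -0.22. Of the 62 bright genes 1.5-fold higher, 27 of 61 above background were higher at ZT10, and of the 37 lower, 29 of 37 were lower. Of the 13240 genes described at ZT10, 7332 were higher there (55.4%) and 5903 lower (44.6%). At ZT10, 60 genes were 1.5-fold higher (0.453%) and 71 lower (0.536%), together 0.989%, against 1.43% at ZT22.

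The genes 1.5-fold apart in the same direction at both times were few, and those outside the naming rule are named because the sets are small, after their values were seen. There were 7 higher, Agrp, Npy, Ccr6, Gata5, Trim55, Depp1 and Amy2. Trim55, a muscle ubiquitin ligase, gave 498 and 719 units (0.71) and 507 and 824 (0.64), with -0.01 on its other probe at ZT22. Depp1, a FOXO-regulated gene of autophagy, gave 152 and 245 (0.87) and 106 and 172 (0.64), and Amy2, pancreatic amylase, 81.1 and 140 (0.97) and 90.6 and 146 (0.63).

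There were 11 lower at both times, 4 of them numbered clones. Rbm45, an RNA-binding protein, gave 285 and 162 units (-0.64) and 294 and 173 (-0.82), and Cthrc1, a secreted collagen-triple-helix protein, 276 and 143 (-0.77) and 454 and 252 (-0.91). For Rbm45 both control pools and both bezafibrate pools were nearly equal between times. The others were H2-Aa, Akr1e1 (-0.68 and -0.66), Cdkn3 (-1.37 and -0.90), Krt84 (-1.70 and -0.95) and Rnaset2 (-0.72 and -0.64, other probes 0.13 and -0.05).

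Opposite directions at 1.5-fold occurred in 8 genes higher at ZT22 and lower at ZT10 and in 5 lower at ZT22 and higher at ZT10. The former included Psmc3ip, Gabrd and Pop4, a ribonuclease P subunit (1380 and 2100 units, then 2510 and 1460). The latter were Fggy, Firre, Itga1, Itga4 and Ptprg, and Ptprg gave 1640 and 2960 units at ZT10 (0.80). No test of the difference between times was possible with 1 pool each.

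**Figure D4:**
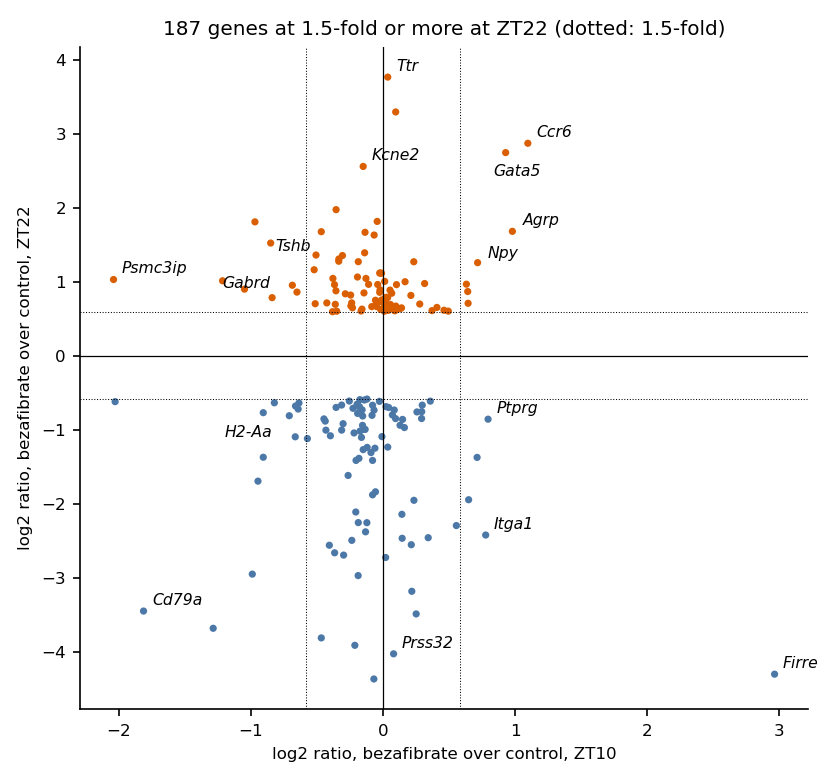
Log2 ratio of bezafibrate over control at ZT22 (vertical axis) against that at ZT10 (horizontal axis) for the 187 genes at 1.5-fold or more at ZT22 that have a value at ZT10, orange higher and blue lower at ZT22. Most points stand near 0 at ZT10, Agrp (1.68 and 0.98) and Npy (1.26 and 0.72) lie to the upper right, and Firre (-4.30 and 2.96) lies far to the lower right.

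A second probe for the same gene was the nearest thing to a repeat within the ZT22 pair. Of the 93 genes 1.5-fold higher, 29 had another probe above background, in 10 at least 1 other probe was also 1.5-fold higher, and in 8 all were. Of the 96 lower, 21 had another probe, and in 7 all were 1.5-fold lower. Genes whose probes all agreed on the higher side included Kcnj4, an inward-rectifier potassium channel (3100 and 4620 units, 0.75 and 0.71), Filip1, a filamin-binding protein (417 and 667, 0.86 and 0.87), Myo5b, a myosin of vesicle traffic (361 and 516, 0.69, 0.66 and 0.68), and Amy1, salivary amylase (2420 and 3760, 0.81 and 1.17). On the lower side they were Dtnb, Rmnd1, H2-Aa, H2-Ab1, Trim16, Wdr63 (209 and 111 units) and Fggy, a carbohydrate kinase (259 and 59.4 units, -1.95 and -2.11). Kcnj4, Filip1, Myo5b, Amy1, Wdr63 and Fggy are named after their values were seen.

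**Figure D5:**
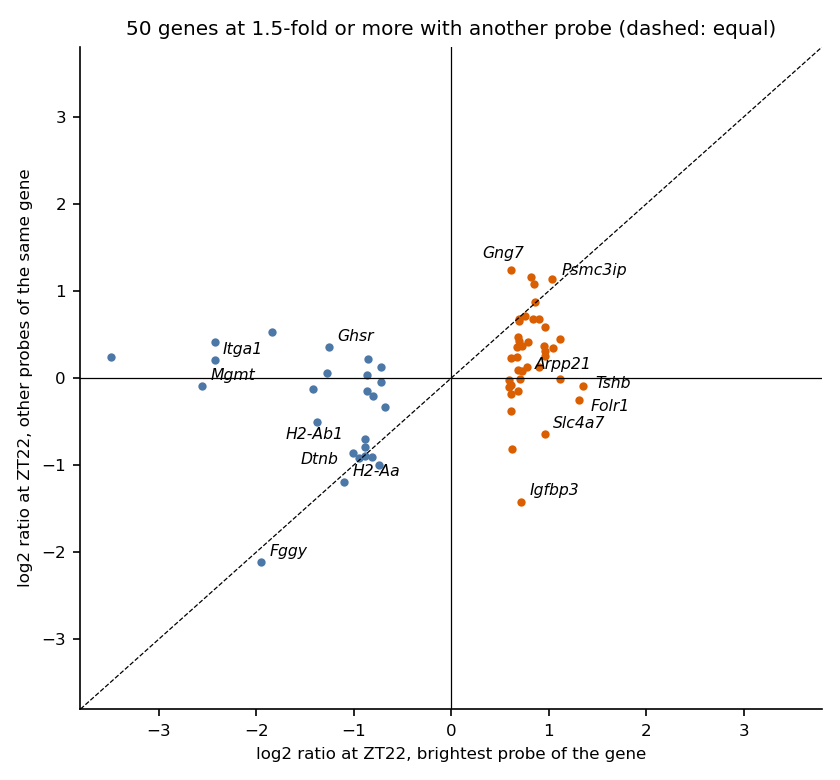
Log2 ratio at ZT22 of the other probes of a gene (vertical axis) against that of its brightest probe (horizontal axis), for the 50 genes at 1.5-fold or more with another probe above background, 1 point per other probe, orange higher and blue lower. Points on the dashed line agree: Fggy, H2-Aa, Dtnb and Psmc3ip lie near it, while Mgmt, Itga1, Arpp21, Tshb and Folr1 lie near 0 on the vertical axis.

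The lower limit of signal was no natural border. The 166 genes just inside it, whose brighter array gave 100 to 110 units, had a median absolute ratio of 0.17 and 4 past 2-fold, and the 214 genes just outside, at 90 to 100, had 0.16 and 7.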

How the data were processed

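Of the 4 arrays, the control and bezafibrate arrays of ZT22 gave the comparison and those of ZT10 a second pair of pools. Per the file headers, the authors extracted spots with Feature Extraction 9.5.1.1. They deposited an intensity per spot after background subtraction and spatial detrending, with no normalization between arrays. Beside it the deposited files hold its error, raw spot and local background intensity, and other marks of 0 or 1 per spot. Per the labels, the deposited value table is a ratio of bezafibrate over control. It correlated with the signal ratio at r of 0.9949 on the log2 scale over 28805 spots at ZT22, differed from it by a median of 0.10 (within 0.05 of that for 99.6% of these spots), was blank for 14574 spots, and served as an alternative only.

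Log2 signals were reduced by each array's 75th percentile over non-control spots, outlier spots (73 to 142 per array) were dropped, and each gene was read from its brightest probe. Of 41174 probes, 22951 were named by accession, 5850 by symbol, 3944 by an older symbol and 2225 as in the files, and 6204 had no name (RefSeq table of GRCm38.p6, names only). Between 68.7% and 74.6% of the 43379 features were well above background, and 0 were saturated. The number of arrays limits the precision. The members and lists were chosen with earlier results of these data known, and the MHC class II list after its values were seen. Named genes were the 15 highest and 15 lowest ratios, the same at signal 100 or more on both arrays, list members past 1.5-fold (up to 6 per list, or the 2 largest where fewer than 2 passed) and fixed genes, without clones and numbered loci. Other genes were picked from the lists or small sets after their values were seen.

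A few genes are not reported here. Alternatives were normexp (offset 50, limma 3.58.1, R 4.3.3, on the median spot intensity), median, quantile and loess scaling, the mean over probes, other signal limits, outlier spots kept, and the deposited ratio. Counting was tested on simulated data (Python 3.11.15).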

Additional observations from a re-analysis of the deposited data

Results flagged for a closer look

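A few named genes stood on opposite sides at the 2 times, at 1.5-fold or more each time, and this difference was not tested, since each time had 1 pool per diet. Psmc3ip gave a log2 ratio of 1.03 at ZT22 and -2.04 at ZT10, where the control ZT10 array (1430 units) stood above the other 3. Gabrd gave 0.86 and -0.65, Ptprg -0.86 and 0.80, and Firre -4.30 and 2.96.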

How the results depend on the processing

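No paired analysis was possible because each diet had 1 pool at ZT22, and no pool could be left out. The 32 genes 2-fold higher and 52 lower became 19 and 27 with normexp, 59 and 118 with no minimum signal and 13 and 7 with 100 or more on both arrays. The 96 genes 1.5-fold lower became 57, 310 and 37 under the same 3 settings, and the 93 higher became 210 with no minimum signal. The other counts stayed within 1.5 times under median, quantile and loess scaling, the mean over probes, outlier spots kept and the deposited ratio (26 and 57 at 2-fold). Of 133 named genes, 44 moved beyond the scanner error with normexp, 8 with the mean over probes and 1 with the deposited ratio. Probes of the same gene could differ in sign, as for Nr1d1 (0.40, with -1.07 and 0.23 on its other probes). Of the 2-fold genes, 19 of the higher and 45 of the lower were under 100 on 1 array.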
